A study of Mus musculus with 16 samples.

Results

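Fatty acid and triglyceride synthesis was followed through 31 genes in mouse liver mRNA-seq. The genes were chosen by name from knowledge of the pathway, with earlier results of these data known. Each listed symbol had to equal a gene name in both deposited count tables. All 31 genes were found among the 24421 rows of each table. They cover the supply of acetyl-CoA and NADPH, malonyl-CoA and palmitate synthesis, desaturation, elongation, transcriptional control, glycerolipid assembly and triglyceride lipases.

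The study profiled livers of 4 groups of mice with 4 libraries each. The double knockout (DKO) carried floxed ARID1A and floxed ARID1B alleles with the Alb-Cre transgene, and its controls had both floxed genes but no Cre. The ARID1B knockout (BKO) carried floxed ARID1B alleles with Alb-Cre, and its controls carried floxed ARID1B without Cre. ARID1A and ARID1B are alternative DNA-binding subunits of the SWI/SNF chromatin remodelling complex. Alb-Cre uses the albumin promoter, which is active in hepatocytes. Which other liver cells, if any, lost the floxed genes was not tested. There was no group lacking ARID1A alone, and every knockout library and no control library carried Cre, so an effect of Cre cannot be told apart from that of the deletions. Nothing in the sources used here gives age, feeding or time of collection. Libraries are called by their tags, and values per library always stand in the order DKO-7068, DKO-7070, DKO-7112 and DKO-7137, then WT-7067, WT-7069, WT-7114 and WT-7139 for the double knockout experiment, and F1, F3, F4 and F6, then F2, F5-2, F5 and F7 for the ARID1B experiment.

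In liver, cytosolic acetyl-CoA made from citrate is carboxylated to malonyl-CoA and condensed to palmitate, which is then lengthened by elongases and given double bonds by desaturases. The resulting acyl-CoAs are joined to glycerol phosphate in successive steps and end as triglyceride. The transcription factors SREBP-1c, made from Srebf1 and driven by insulin and the oxysterol receptor LXR, and ChREBP, made from Mlxipl and driven by glucose, are known to raise most of these genes after feeding.

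Promoters of some members whose levels changed in the double knockout are shown because SREBP-1c and ChREBP act through short promoter motifs. They are the 130 bases before a transcript start, from RefSeq (GRCm38.p6), written 5′ to 3′ on the gene's strand. Capitals mark the CCAAT box, which binds NF-Y, in either orientation, or the E-box CACGTG. Each stretch shown holds a marked motif. Other starts of Srebf1, Mlxipl and Elovl1 hold none in these 130 bases. Nor do the starts of Acly, Me1, Acaca, Mid1ip1, Fads2, Elovl6, Agpat2 and Lpin1. Those of Thrsp and Acacb, which also fell, hold CCAAT boxes but are not shown. Fasn lies at chr11:120824548-120824677 on the minus strand, Srebf1 (the third of its RefSeq starts) at chr11:60210472-60210601 on the minus strand, Mlxipl (the second start) at chr5:135089760-135089889 on the plus strand, and Elovl1 (the first start) at chr4:118427963-118428092 on the plus strand.
Fasn: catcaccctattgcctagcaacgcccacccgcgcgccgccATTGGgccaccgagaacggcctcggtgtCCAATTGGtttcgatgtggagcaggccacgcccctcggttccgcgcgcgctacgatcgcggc
Srebf1: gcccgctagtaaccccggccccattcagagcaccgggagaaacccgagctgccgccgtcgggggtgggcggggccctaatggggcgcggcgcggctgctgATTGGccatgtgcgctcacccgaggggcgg
Mlxipl: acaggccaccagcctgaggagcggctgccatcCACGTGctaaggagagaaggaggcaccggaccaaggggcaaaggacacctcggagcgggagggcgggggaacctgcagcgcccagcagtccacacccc
Elovl1: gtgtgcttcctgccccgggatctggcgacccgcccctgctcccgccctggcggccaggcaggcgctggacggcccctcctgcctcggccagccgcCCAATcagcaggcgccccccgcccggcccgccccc
Fasn, which fell, held 3 CCAAT boxes between -90 and -55, counted from the base before the start as -1, of which the last 2 overlap on opposite strands. Elovl1, which rose, held 1 at -35 to -31, and the Mlxipl stretch held an E-box at -98 to -93. The motif search used windows from 250 bases before to 50 after each start on both strands. RefSeq windows were at hand for 25 of the 31 members, with 37 starts in all. The CCAAT box stood in 16 of these 37 windows (43.2%), against 37.4% of 32851 windows of all genes. The E-box CACGTG stood in 4 (10.8%, in Elovl5, Lpin2, Lpin3 and Mlxipl), against 7.15% of all. The sterol regulatory element TCACNCCAC stood in 1 (2.7%, in Mlxipl), against 1.24% of all, and neither the LXR element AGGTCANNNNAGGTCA nor the paired E-boxes CACGTGNNNNNCACGTG of the carbohydrate response element stood in any member window. Letters absent from a window say nothing of the factors, and a match is not a binding site. The CCAAT box stood in members that fell, rose or were not called.

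The double knockout experiment held 8699417 to 11031443 counts per library and the ARID1B experiment 21151726 to 40551934. Levels are given as CPM, read counts scaled to library size by edgeR with its trimmed-mean (TMM) factors, with the SD over 4 libraries. Tests are edgeR's quasi-likelihood test with Benjamini-Hochberg adjustment over all genes tested, called at an adjusted p under 0.05. Each library has its own tag, but the labels do not say that each is a separate animal, and F5 and F5-2 may be one, so p-values measure the spread between these libraries. Arid1b was at 45.4 to 78.0 CPM against 80.7 to 97.3 CPM in the double knockout experiment (adjusted p = 0.0167) and at 40.1 to 48.4 CPM against 81.9 to 86.4 CPM in the ARID1B experiment (adjusted p = 0.00154), lower in every knockout library in both. Arid1a was at 99.6 to 114 CPM against 112 to 136 CPM in the double knockout experiment and was not called (adjusted p = 0.149). The counts cover whole genes, including exons outside the floxed stretch, so they do not check the deletions directly. Alb, the hepatocyte gene for albumin, took 3.76% to 6.38% of the counts in the double knockouts and 8.62% to 9.94% in their controls. It took 6.77% to 9.30% in the ARID1B knockouts and 7.29% to 8.23% in their controls.

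In the double knockout livers 16 of the 31 members fell, and they ran from citrate cleavage to the last step of triglyceride assembly. Of these 16 calls 8 held in all 17 alternative fits given below, and that of Acly, the gene of citrate cleavage, did not. Thrsp, which encodes a cofactor of fatty acid synthesis, fell furthest (67.6-fold), and Scd2, a stearoyl-CoA desaturase isoform, rose 34.8-fold. Of the 31 members, 29 passed edgeR's filter on low counts, 16 of these fell, 2 rose and 11 were not called. Of all 12848 genes tested, 16.6% fell and 19.2% rose. The members were chosen with earlier results of these data known, so this comparison is descriptive. The median log2 fold change of the tested members was -1.01, against 0.02 over all genes tested, and 13 of the 16 fell by at least 2-fold.

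In the ARID1B knockout livers 30 of the 31 members were not called. All 31 were tested, none rose, and 1, Elovl3, fell. Of all 14061 genes tested there, 0.185% rose and 0.398% fell. The members' median log2 fold change was 0.33, with 24 above 0 and 7 below, against a median over all genes that rounds to 0.

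Some cell type marker lists moved with the double knockout, where 19.2% of all genes tested rose and 16.6% fell. The summed level of 9 hepatocyte markers was 85106 to 111805 CPM in the double knockouts and 129822 to 152032 CPM in their controls. The groups did not overlap, and 3 of the 9 (33.3%) fell and 1 (11.1%) rose. Stellate cell markers summed to 1921 to 2894 CPM against 543 to 746 CPM, with 6 of 10 higher and 2 lower. Macrophage markers summed to 506 to 590.2 CPM against 295 to 491 CPM, with 7 of 10 higher. Bile duct markers summed to 82.7 to 863 CPM against 36.2 to 57.8 CPM, with 1 higher of only 3 tested among 8. Adipocyte markers summed to 6.24 to 9.55 CPM against 1.57 to 5.16 CPM, and Adipoq, Lep, Plin1 and Cfd were at 0 in all 8 libraries. Retn was also at 0 in the double knockouts, so their sum was Cidec alone. Cidec was the only marker of this list tested, and it was called higher. Endothelial markers (444 to 485 CPM against 442 to 542 CPM) and lymphocyte markers (3.86 to 8.37 CPM against 2.24 to 5.54 CPM) overlapped between the groups. Of 8 endothelial markers 1 (12.5%) was higher and 2 (25%) lower, near the shares of all genes. No lymphocyte marker passed the filter on low counts. In the ARID1B experiment none of these lists had a called gene. In bulk tissue fewer cells of a type and less RNA per cell cannot be told apart.

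The libraries were also scaled to the summed counts of the hepatocyte markers. This moved the median of all genes from 0.02 to 0.58 on the log2 scale and the calls over all genes to 7408 higher and 549 lower, from 2467 and 2137. The members' median went from -1.01 to -0.45, a shift that this scaling gives to all genes alike, and 8 members were still called lower: Me1, Acaca, Thrsp, Elovl6, Srebf1, Mlxipl, Lpin1 and Dgat2. Under this scaling 6 members were higher: Scd2, Elovl1, Elovl2, Lpin2, Lpin3 and Pnpla2. Of these only Scd2 and Elovl1 were also called higher with TMM scaling. Scaling to total counts moved the median of all genes to 0.20 and the calls to 3266 higher and 1269 lower. The part of cell composition in the members' differences was not otherwise tested.

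**Figure D1:**
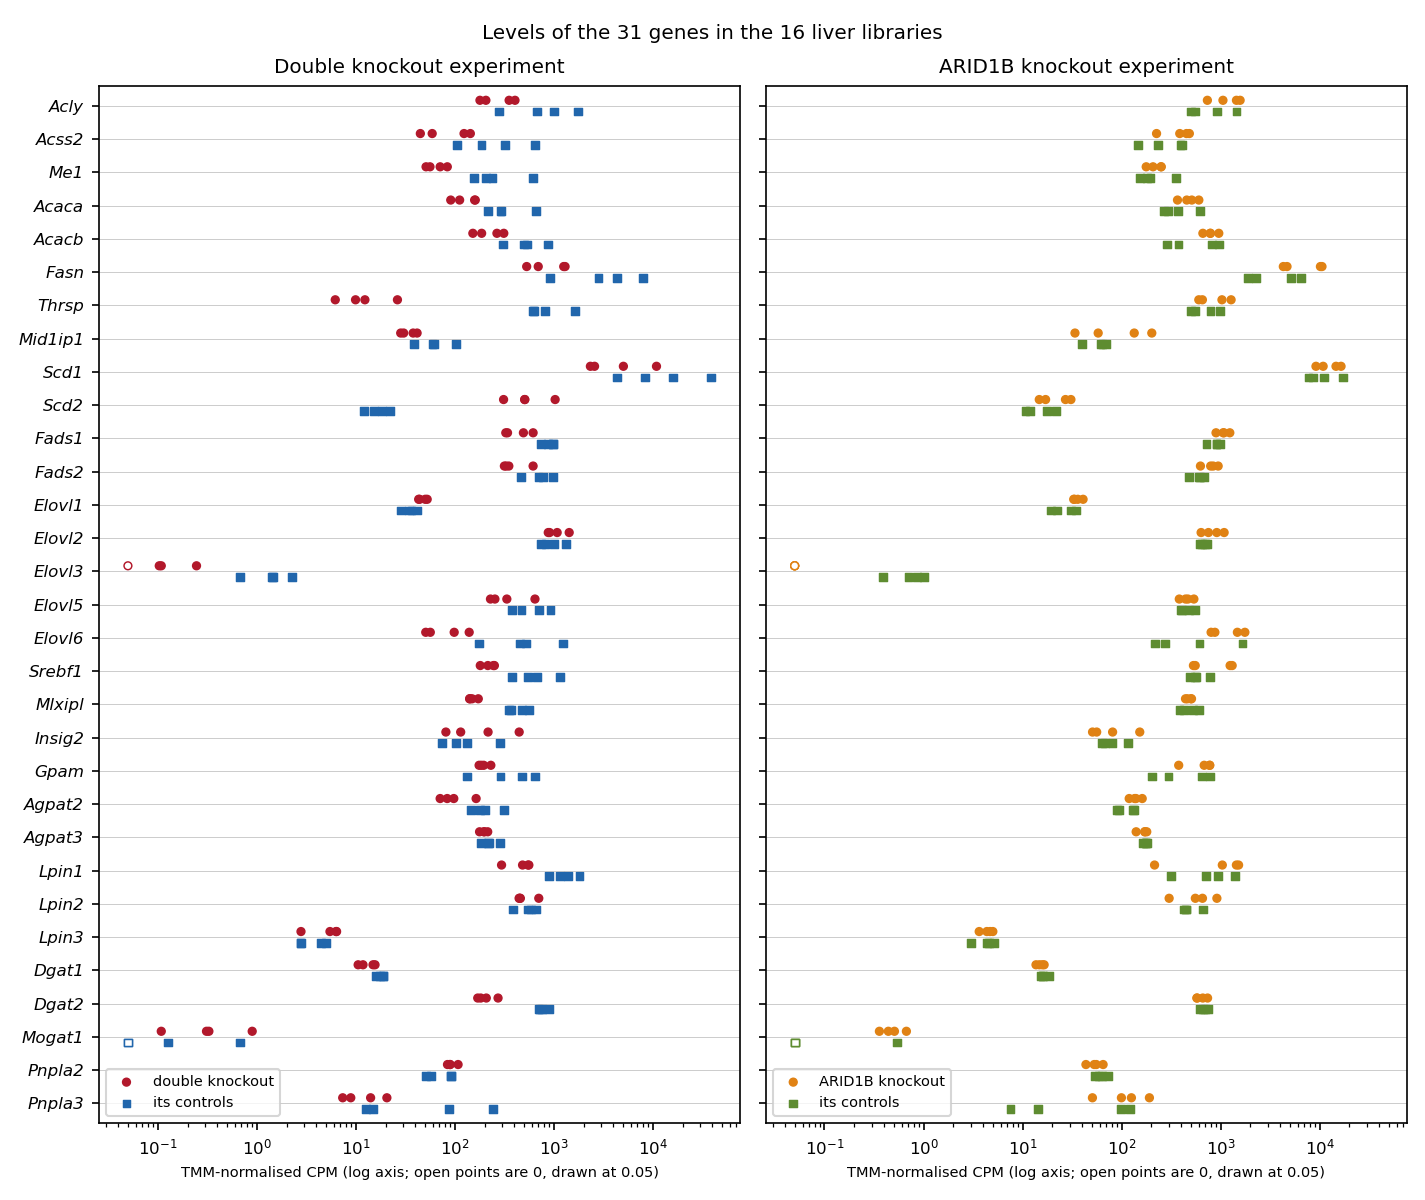
TMM-normalised CPM (log axis) of the 31 genes in each library, with the double knockout experiment on the left and the ARID1B experiment on the right; circles are knockouts, squares are controls and open points are 0. Thrsp and Scd2 stand furthest from their controls on the left, and most members overlap their controls on the right.

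The supply of acetyl-CoA and NADPH comes first. Acly, which cleaves citrate to cytosolic acetyl-CoA, was at 206, 179.6, 406 and 354 CPM in the double knockouts and 1739.9, 279.8, 678 and 1004 CPM in their controls. The double knockouts were the lower group, but the control WT-7069 lay among them. Acly fell 3.23-fold (log2 -1.69 ± 0.53 (SE), adjusted p = 0.0369), a call that was lost on leaving out any 1 of the 8 libraries other than WT-7069, with adjusted p up to 0.0692. Acss2, which makes acetyl-CoA from acetate, was at 59.1, 44.9, 144 and 124 CPM in the double knockouts and 650.5, 105, 186 and 320.4 CPM in their controls. It was not called (log2 -1.76 ± 0.62 (SE), adjusted p = 0.0592), though without the low control WT-7069 its adjusted p was 0.0250. Me1, the malic enzyme that supplies NADPH, was at 56.2, 51.3, 71.2 and 84.0 CPM in the double knockouts and 619, 156, 239.9 and 206 CPM in their controls. Every double knockout library lay below every control, and Me1 fell 4.65-fold (log2 -2.22 ± 0.44 (SE), adjusted p = 0.00501). Without WT-7067, the highest control, its log2 fold change was -1.62 and it was still called.

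Malonyl-CoA is made by 2 acetyl-CoA carboxylases, and all 3 genes of malonyl-CoA and palmitate synthesis fell. Acaca, the cytosolic carboxylase that feeds synthesis, was at 112, 91.0, 159 and 161 CPM in the double knockouts and 662, 217, 289 and 296 CPM in their controls. The groups did not overlap, and Acaca fell 2.80-fold (log2 -1.49 ± 0.36 (SE), adjusted p = 0.0107). Acacb, the carboxylase at the outer mitochondrial membrane that restrains fatty acid oxidation, was at 187, 152, 266 and 313 CPM in the double knockouts and 868, 307, 498 and 540.4 CPM in their controls. Only DKO-7137 reached the lowest control, WT-7069, and Acacb fell 2.41-fold (log2 -1.27 ± 0.33 (SE), adjusted p = 0.0140). Fasn, fatty acid synthase, was at 696, 532, 1260.2 and 1299.8 CPM in the double knockouts and 7889.9, 922, 2824 and 4354 CPM in their controls. The controls themselves spanned from WT-7069 to WT-7067, and DKO-7112 and DKO-7137 lay above WT-7069. Fasn fell 4.22-fold (log2 -2.08 ± 0.61 (SE), adjusted p = 0.0289). That call was lost without DKO-7112 (adjusted p = 0.0543) or without WT-7139 (adjusted p = 0.0553). The tags fall into 3 number ranges that each hold double knockouts and controls, and with the range as a term in the fit neither Fasn (log2 -2.15, adjusted p = 0.0635) nor Acly (log2 -1.76, adjusted p = 0.0754) was called.

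The small proteins encoded by Thrsp and Mid1ip1 are paralogs that bind each other and regulate acetyl-CoA carboxylase. Thrsp was at 26.4, 6.21, 12.4 and 9.95 CPM in the double knockouts and 1651, 628, 618 and 815 CPM in their controls. All 4 double knockouts were at a small fraction of the lowest control, and Thrsp fell 67.6-fold (log2 -6.07 ± 0.59 (SE), adjusted p = 1.40e-04). Mid1ip1 was at 41.6, 38.0, 28.4 and 30.5 CPM in the double knockouts and 103, 38.9, 59.5 and 62.2 CPM in their controls. It fell 1.91-fold (log2 -0.93 ± 0.27 (SE), adjusted p = 0.0251), with DKO-7068 above the lowest control, and the call was lost without DKO-7112 (adjusted p = 0.0577) or DKO-7137 (adjusted p = 0.0644). Per kb of exon, Thrsp made up 95.5% ± 0.919 of the pair's level in the controls and 36.4% ± 12.4 in the double knockouts (SD, n = 4), and the ranges (94.3% to 96.2% and 20.6% to 50.1%) did not overlap. In the ARID1B experiment its share was 93.5% ± 3.27 against 94.6% ± 2.15.

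Among the desaturases, the isoforms of stearoyl-CoA desaturase parted. Scd1, the main hepatic isoform, which makes oleate from stearate, was at 2343, 2580.1, 10895 and 5046 CPM in the double knockouts and 38778, 4340.1, 15919.5 and 8296 CPM in their controls. The groups overlapped and spread widely, and Scd1 was not called (log2 -1.69 ± 0.76 (SE), adjusted p = 0.120, 95% interval -3.43 to 0.05). Scd2, an isoform best known from brain and from liver before weaning, was at 508, 311, 509.8 and 1032 CPM in the double knockouts and 22.2, 12.0, 18.4 and 15.3 CPM in their controls. Every double knockout was more than 10 times above every control, and Scd2 rose 34.8-fold (log2 5.12 ± 0.41 (SE), adjusted p = 3.31e-05). Per kb of exon, Scd2 made up 11.3% ± 5.65 of the pair's level in the double knockouts and 0.140% ± 0.0835 in their controls (SD, n = 4), so Scd1 remained the larger in all libraries. The annotated transcripts of the genes share 145 exact 50-base windows, 2.97% of those of Scd1 and 2.66% of those of Scd2.

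The desaturases of polyunsaturated fatty acids both fell. Fads1, the delta-5 desaturase, was at 341, 328, 618 and 493 CPM in the double knockouts and 984, 745, 985 and 882 CPM in their controls. The groups were separate, and Fads1 fell 2.02-fold (log2 -1.01 ± 0.22 (SE), adjusted p = 0.00459). Fads2, the delta-6 desaturase encoded beside it, was at 329.6, 317, 618 and 351 CPM in the double knockouts and 783, 701, 979.6 and 467 CPM in their controls. DKO-7112 lay above the control WT-7139 and apart from the other double knockouts, and Fads2 fell 1.81-fold (log2 -0.86 ± 0.27 (SE), adjusted p = 0.0317). Its call was lost on leaving out any 1 library other than DKO-7112 and WT-7139, with adjusted p up to 0.0850.

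**Figure D2:**
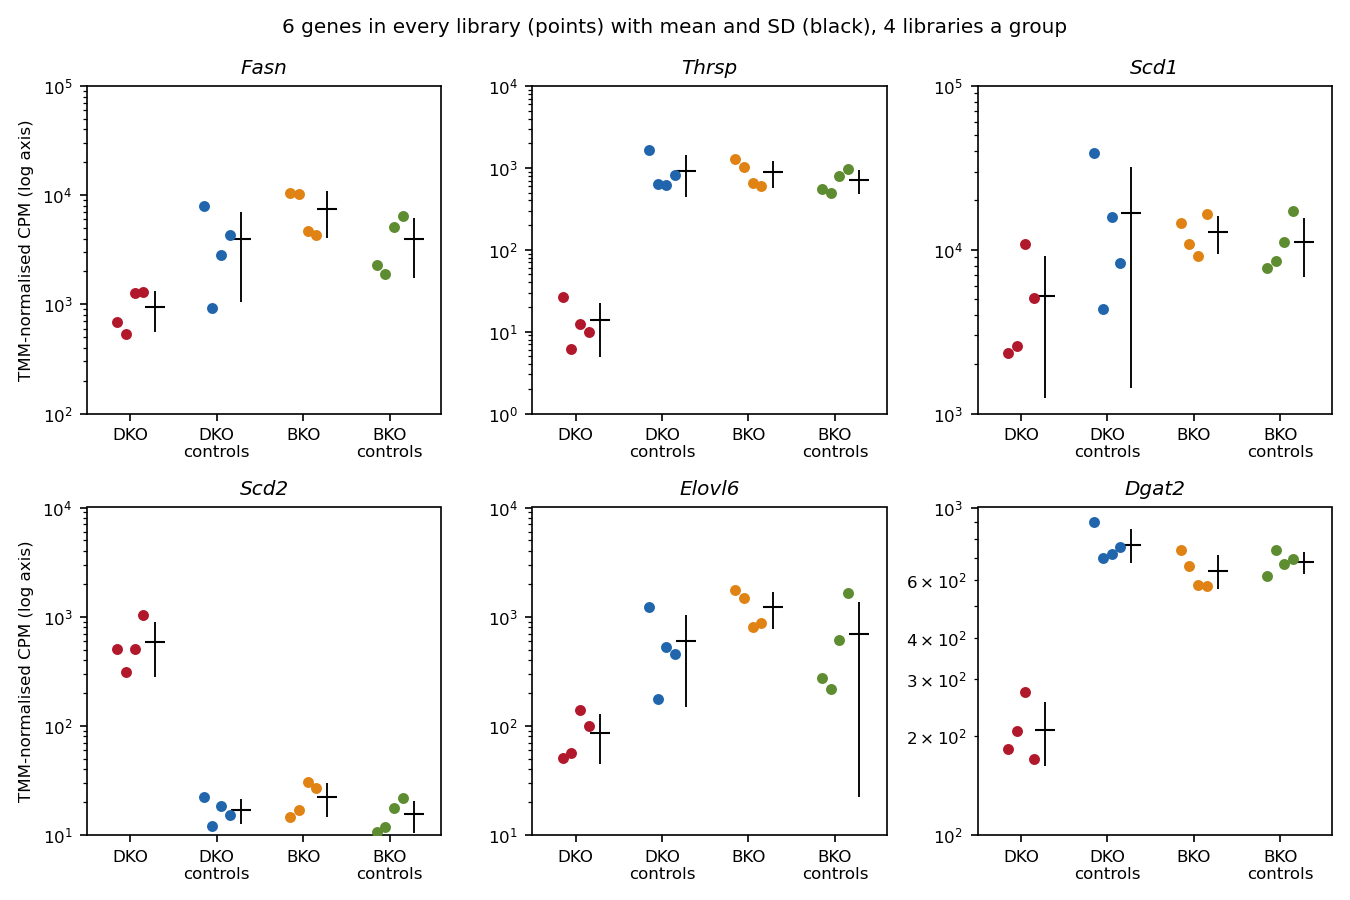
TMM-normalised CPM (log axes) of Fasn, Thrsp, Scd1, Scd2, Elovl6 and Dgat2, with a point for each library and the mean and SD of 4 libraries in black, for the double knockout (DKO), its controls, the ARID1B knockout (BKO) and its controls. Thrsp, Elovl6 and Dgat2 are lower and Scd2 higher in all 4 double knockouts than in all 4 of their controls, and no gene shown separates the ARID1B knockouts from their controls.

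Elongation genes moved in different directions. Elovl6, which lengthens palmitate to stearate, was at 50.9, 56.6, 139.8 and 98.6 CPM in the double knockouts and 1229, 177, 523 and 459 CPM in their controls. The groups did not overlap, and Elovl6 fell 6.90-fold (log2 -2.79 ± 0.61 (SE), adjusted p = 0.00881). Without WT-7067, its highest control, the log2 fold change was -2.17 and the call held. Elovl1, which lengthens saturated very long chains, was at 44.1, 43.2, 50.3 and 52.6 CPM in the double knockouts and 36.5, 28.8, 34.7 and 41.3 CPM in their controls. All double knockouts lay just above all controls, and Elovl1 rose 1.35-fold (log2 0.43 ± 0.13 (SE), adjusted p = 0.0221), a call that was lost without any 1 of DKO-7112, DKO-7137, WT-7069 and WT-7114, with adjusted p up to 0.0553. The elongases of polyunsaturated chains were not called. Elovl5 was at 366 ± 192 CPM against 619.8 ± 247 CPM (adjusted p = 0.160), though without DKO-7112 it was called lower (log2 -1.21, adjusted p = 0.0145), as it was with the tag range as a term (log2 -0.83, adjusted p = 0.0157). Elovl2 was at 1074 ± 254 CPM against 976 ± 259 CPM (adjusted p = 0.667). Elovl3, known from liver and brown fat, had 3, 0, 1 and 1 counts in the double knockouts and 6, 15, 13 and 18 in their controls. The groups did not overlap, but the counts were too low for edgeR's filter. Fitted without a filter, its adjusted p was 0.00155.

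The transcription factors of the pathway fell. Srebf1, the gene of SREBP-1, was at 251, 246, 181 and 216 CPM in the double knockouts and 1153, 381, 549 and 681 CPM in their controls. Both groups stayed apart, and Srebf1 fell 3.09-fold (log2 -1.63 ± 0.30 (SE), adjusted p = 0.00250). Mlxipl, the gene of ChREBP, was at 141, 142, 149.7 and 173 CPM in the double knockouts and 478, 371, 353 and 559 CPM in their controls. The 4 double knockouts stood close together below all controls, and Mlxipl fell 2.91-fold (log2 -1.54 ± 0.17 (SE), adjusted p = 9.89e-05). Insig2, which retains SREBP precursors in the endoplasmic reticulum, was at 215 ± 165 CPM against 149 ± 93.2 CPM and was not called (adjusted p = 0.544). Its double knockout libraries ran from 81.3 to 447 CPM across those of the controls.

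Glycerolipid assembly begins with the acylation of glycerol phosphate. Gpam, the mitochondrial acyltransferase of the first step, was at 185, 176, 196 and 231 CPM in the double knockouts and 475, 132, 289 and 644 CPM in their controls. WT-7069 lay below all 4 double knockouts, and Gpam was not called (log2 -0.97 ± 0.41 (SE), adjusted p = 0.10), though without that control its log2 fold change was -1.26 with an adjusted p of 0.00427. Agpat2, the main acyltransferase of the second step in liver, was at 83.8, 71.2, 164 and 97.7 CPM in the double knockouts and 201, 146, 181 and 314 CPM in their controls. It fell 2.02-fold (log2 -1.01 ± 0.31 (SE), adjusted p = 0.0288) with DKO-7112 above the lowest control. That call was lost without any 1 of DKO-7068, DKO-7070, DKO-7137 and WT-7139, with adjusted p up to 0.0685. Agpat3, a related acyltransferase, was at 197 ± 15.2 CPM against 227 ± 42.0 CPM and was not called (adjusted p = 0.305).

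Lipins remove phosphate from phosphatidate to give diglyceride. Lpin1 was at 549, 297, 560.1 and 484 CPM in the double knockouts and 1398, 1819.6, 902 and 1148 CPM in their controls. The groups did not overlap, and Lpin1 fell 2.79-fold (log2 -1.48 ± 0.26 (SE), adjusted p = 0.00149). Lpin2 was at 516 ± 126 CPM against 544 ± 116 CPM and Lpin3 at 5.25 ± 1.69 CPM against 3.77 ± 1.17 CPM, and neither was called (adjusted p = 0.807 and 0.252). Per kb, Lpin1 made up 69.8% ± 9.04 of lipin transcript in the controls and 47.4% ± 8.26 in the double knockouts (SD, n = 4), and Lpin2 29.8% ± 9.01 and 51.7% ± 8.39, with no overlap for either. Lpin1 was thus the larger in all 4 controls, and Lpin2 was the larger in DKO-7070 and DKO-7137.

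The last step joins a further acyl chain to diglyceride. Dgat2, the enzyme of newly made fatty acids in liver, was at 183, 208, 274 and 171 CPM in the double knockouts and 903, 701, 719.8 and 757 CPM in their controls. The 4 controls agreed closely, all far above the double knockouts, and Dgat2 fell 3.69-fold (log2 -1.88 ± 0.18 (SE), adjusted p = 4.09e-05). Dgat1, the unrelated enzyme of the same reaction, was at 14.9, 15.7, 11.8 and 10.6 CPM in the double knockouts and 19.0, 16.1, 19.0 and 17.5 CPM in their controls. The groups did not overlap but lay close, and Dgat1 fell 1.35-fold (log2 -0.43 ± 0.15 (SE), adjusted p = 0.0461). The Dgat1 call was lost without any 1 of DKO-7112, DKO-7137, WT-7067, WT-7114 and WT-7139, with adjusted p up to 0.10, and scaled to hepatocyte markers its log2 fold change was 0.13. Mogat1, which acylates monoglyceride, had 4, 10, 1 and 3 counts in the double knockouts and 0, 0, 6 and 1 in their controls, too few to test under the filter.

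Of the triglyceride lipases, Pnpla2, the gene of adipose triglyceride lipase, was at 92.9 ± 10.4 CPM against 72.7 ± 21.5 CPM and was not called (adjusted p = 0.188). Pnpla3, a lipase paralog that SREBP-1c is known to induce, was at 14.1, 8.91, 7.38 and 20.6 CPM in the double knockouts and 244, 12.8, 14.9 and 86.7 CPM in their controls. WT-7067 and WT-7139 were high, while WT-7069 and WT-7114 lay within the range of the double knockouts. Pnpla3 was not called (log2 -2.81 ± 0.98 (SE), adjusted p = 0.0571), but its adjusted p was 0.0296 without WT-7069 and 0.0342 without WT-7114.

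In the ARID1B experiment the same genes mostly overlapped between knockouts and controls. Fasn was at 10579, 10202, 4691 and 4305 CPM in the ARID1B knockouts and 2283, 1908, 5129 and 6463 CPM in their controls. F1 and F3 were the highest of the 8 libraries, F2 and F5-2 the lowest, and Fasn was not called (log2 0.92 ± 0.51 (SE), adjusted p = 0.577, 95% interval -0.30 to 2.14). Elovl6 was at 1761, 1479, 803 and 877 CPM in the ARID1B knockouts and 277, 217, 612 and 1663 CPM in their controls, with the control F7 between F1 and F3 (log2 0.83 ± 0.71 (SE), adjusted p = 0.730). Srebf1 was at 1249, 1310.0, 555 and 532 CPM in the ARID1B knockouts and 547, 572, 785 and 495 CPM in their controls. F1 and F3 stood apart from F4 and F6, which lay among the controls (log2 0.60 ± 0.34 (SE), adjusted p = 0.575). Fads2 was at 627, 795, 946 and 843 CPM in the ARID1B knockouts and 484, 676, 623 and 608 CPM in their controls. It had the lowest adjusted p of the uncalled members (0.249), with a 95% interval of 0.12 to 0.73.

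Of the members that fell in the double knockout, Dgat2 and Mlxipl had narrow intervals around 0 in the ARID1B knockout, while those of Thrsp and Lpin1 were wider. Dgat2 was at 739, 662, 579.6 and 577 CPM in the ARID1B knockouts and 616, 742, 671 and 696 CPM in their controls (95% interval -0.33 to 0.14), and Mlxipl at 509, 502, 463 and 443 CPM in the ARID1B knockouts and 386, 425, 525 and 601 CPM in their controls (95% interval -0.31 to 0.28). Both intervals leave out a 2-fold change. Thrsp was at 1278, 1033, 656 and 603 CPM in the ARID1B knockouts and 549.9, 499, 793 and 981 CPM in their controls, with a 95% interval of -0.37 to 1.04, and Scd2 at 14.8, 17.1, 30.8 and 27.2 CPM in the ARID1B knockouts and 10.7, 11.9, 17.6 and 21.7 CPM in their controls, with -0.15 to 1.24. Lpin1 was at 1042, 215, 1446 and 1521 CPM in the ARID1B knockouts and 948, 315, 719 and 1387 CPM in their controls. One library of each group, F3 and F5-2, was far below the rest, so that the interval of Lpin1 (-1.32 to 1.97) leaves its change unresolved.

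Elovl3 was the member called in the ARID1B experiment. It had 0 counts in all 4 knockouts and 24, 30, 10 and 19 in the controls F2, F5-2, F5 and F7. The controls averaged 0.744 ± 0.267 CPM, at least 31-fold higher than a floor of 3 counts over the 4 knockout libraries (edgeR, adjusted p = 0.0198). With 0 counts in the knockouts, Elovl3 passed the filter on low counts only through its controls, so this call is descriptive. The call was lost without F1 (adjusted p = 0.0533), F2 (0.0633) or F6 (0.0501), and a filter of 1 CPM in 4 libraries removed the gene. Elovl3 lies at chr19:46131897-46135694 on the plus strand (GRCm38, GENCODE M21), where Pitx3 overlaps it on the opposite strand, and whether counting used strand is not stated in those sources. Mogat1 had 9, 21, 22 and 11 counts in the ARID1B knockouts and 0, 16, 0 and 0 in F2, F5-2, F5 and F7. It was not called (adjusted p = 0.543), but was called higher without F5-2 (adjusted p = 0.0436). In that fit its controls were all at 0, so it passed the filter only through the knockouts.

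The knockouts were then contrasted directly, as the double knockout effect minus the ARID1B effect, each over its own controls. The knockouts come from separate experiments with unlike sequencing depth and control genotype. A difference due to genotype therefore cannot be told apart from one due to experiment. Of 30 members tested, 13 had a lower and 1 a higher log2 fold change in the double knockout. Of all 14050 genes tested, 11.5% were lower and 11% higher. The members' median difference was -1.50, against -0.01 over all genes. The lower members were Thrsp (difference of log2 fold changes -6.44 ± 0.65), Elovl6 (-3.65 ± 0.97), Fasn (-3.02 ± 0.84), Srebf1 (-2.26 ± 0.48), Me1 (-2.25 ± 0.54), Acly (-2.22 ± 0.70), Acaca (-1.83 ± 0.48), Dgat2 (-1.82 ± 0.21), Acacb (-1.69 ± 0.53), Mlxipl (-1.56 ± 0.22), Agpat2 (-1.36 ± 0.37), Fads1 (-1.33 ± 0.26) and Fads2 (-1.31 ± 0.32), each with its SE. Scd2 was the higher one (4.55 ± 0.52). Adjusted p ran from 1.35e-05 for Dgat2 to 0.0357 for Acly.

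Scaled to hepatocyte markers, 7 members stayed lower in this contrast, and Acly, Acaca, Acacb, Fads1, Fads2 and Agpat2 were no longer called. Some calls in this contrast did not hold in every fit that left out a library. The Acly difference was lost in 9 and the Acacb difference in 7 of the 16 fits that left out a library, among them those without DKO-7068, DKO-7070, WT-7067, WT-7139, F1, F2 and F3, with adjusted p up to 0.0763 for Acly and 0.0735 for Acacb. The Acly difference was also lost without F5-2 or F5, and with the tag range as a term (adjusted p = 0.0521), where Elovl5 was called lower (log2 -0.86, adjusted p = 0.0261). With F5 and F5-2 summed, Acly was not called either (adjusted p = 0.0540), and 12 members were lower. The other 11 lower members and Scd2 were called in all 16 fits that left out a library. The Elovl6 difference was -4.55 without F7 and -3.03 without WT-7067, and that of Me1 was -1.66 without WT-7067. Lpin1 fell in the double knockout, but its difference from the ARID1B effect was not called (-1.84 ± 0.73 (SE), adjusted p = 0.0867), and without F3 its adjusted p was 0.00991. Elovl1 had nearly equal log2 fold changes, 0.43 in the double knockout and 0.42 in the ARID1B knockout, and the 95% interval of their difference was -0.50 to 0.46.

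**Figure D3:**
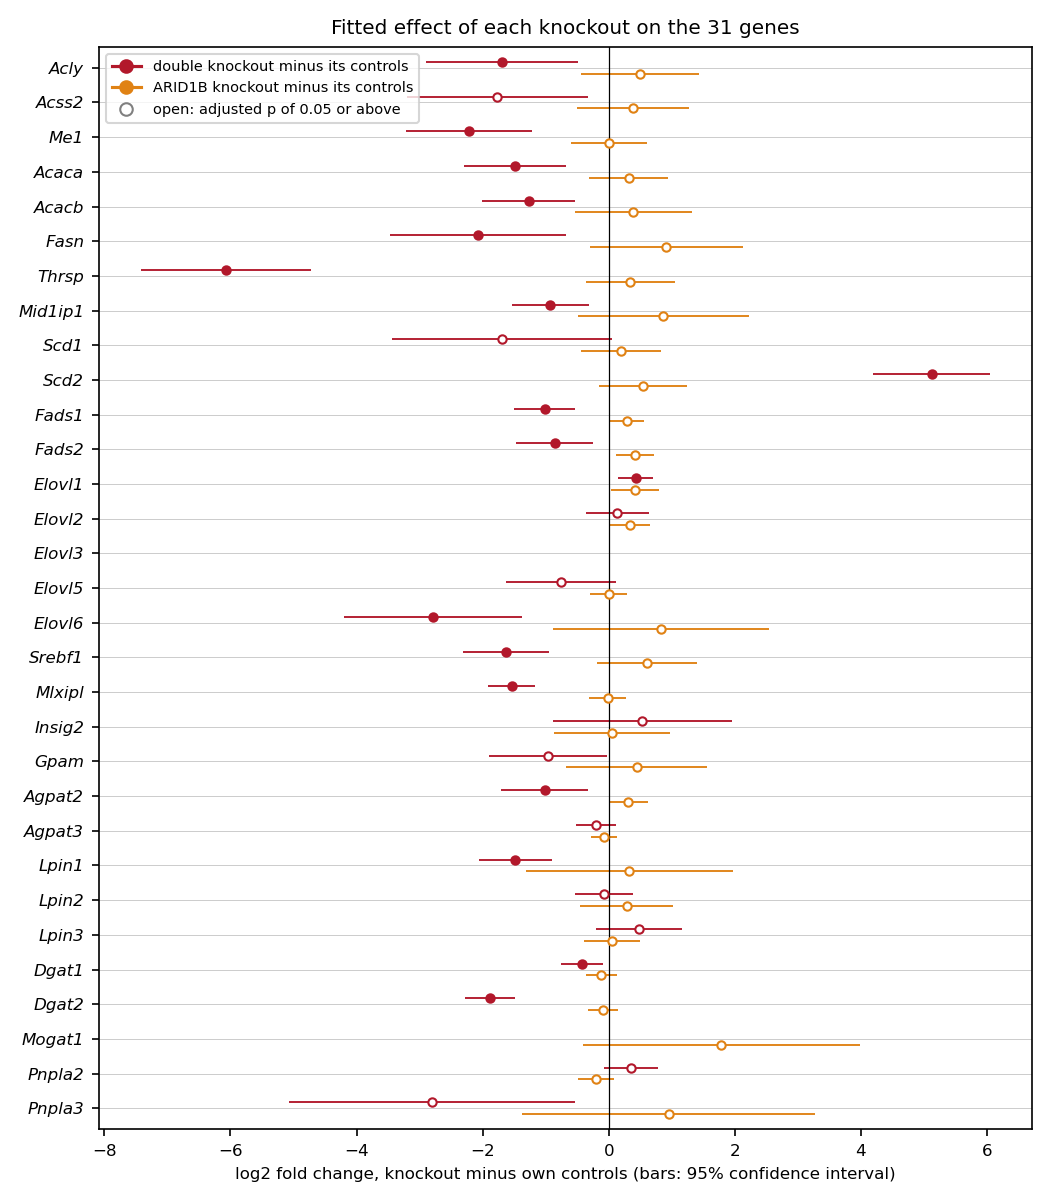
Fitted log2 fold change of each gene over its own controls with the 95% confidence interval, for the double knockout (red) and the ARID1B knockout (orange); filled points have an adjusted p under 0.05, genes not tested have no point, and Elovl3, at 0 in all ARID1B knockouts, is left out because its fitted value is no estimate of size. Thrsp (-6.07) and Scd2 (5.12) are the extremes in the double knockout, while the ARID1B values shown all have open points.

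The order of the members by level per kb of exon changed with the double knockout. Scd1 was first in all 4 groups. Thrsp was second in the double knockout controls, with a mean of 727 CPM per kb, and rank 26 in the double knockouts, with 10.7 CPM per kb. Scd2 went the other way, from rank 28 with 3.11 CPM per kb to rank 6 with 108 CPM per kb. In the ARID1B experiment Thrsp was rank 3 in the knockouts and rank 2 in the controls, and Scd2 was rank 28 in both groups. Neighbours in the order were often closer than their SDs, as Elovl5, Fads1 and Fads2 were in the double knockouts at 132 ± 68.9, 129 ± 39.8 and 128 ± 45.5 CPM per kb.

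Within families, taken here as genes of the same kind of reaction, the share of a gene does not depend on how libraries are scaled. Elovl6 made up 15.6% ± 8.80 of the 5 elongases per kb in the double knockout controls and 3.09% ± 0.628 in the double knockouts, while Elovl2 made up 43.3% ± 7.75 and 62.5% ± 4.50 (SD, n = 4). Neither share overlapped between the groups. Dgat2 made up 97.3% ± 0.246 of the Dgat1 and Dgat2 sum in the controls and 92.7% ± 1.76 in the double knockouts, without overlap. Acacb made up 62.7% ± 3.67 of both carboxylases in the controls and 65.3% ± 1.67 in the double knockouts, and these overlapped. In the ARID1B experiment the ranges of each of these shares overlapped.

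**Figure D4:**
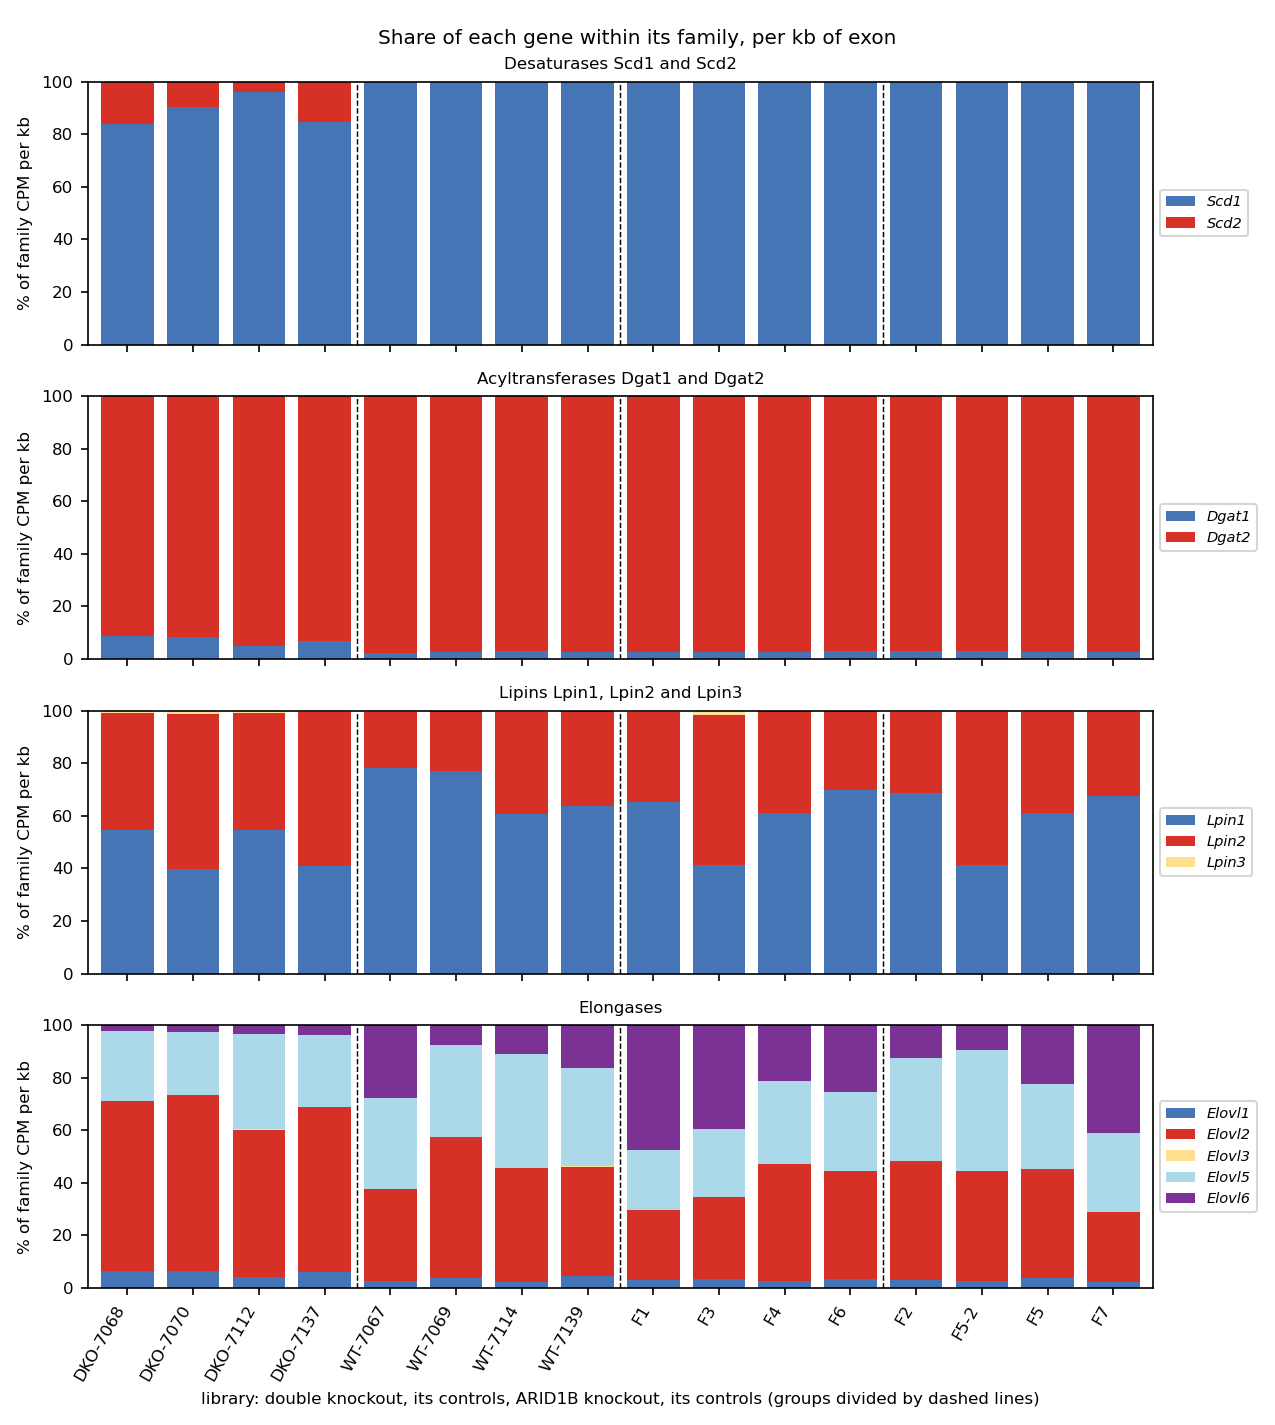
Stacked bars give the share of each gene in the summed CPM per kb of its family, from 0 to 100%, in each of the 16 libraries, with dashed lines between the 4 groups. Scd2 takes 3.98% to 16.1% in the double knockouts and at most 0.296% in any other library, and the Elovl6 share is smallest in the 4 double knockouts.

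The members varied between libraries of the same group. Over the tested genes, the median coefficient of variation of the members was 39.8% in the double knockout controls, against 15.7% over all genes, and 15 of 29 members were among the 10% most variable genes there. It was 31% against 16.2% in the double knockouts, 23.1% against 13.5% in the ARID1B knockouts and 27.2% against 13.6% in their controls. WT-7067 was the highest control in 16 of 29 members and WT-7069 the lowest in 21, while F7 was the highest of its group in 17 of 31 members and F2 the lowest in 13. The summed level of all 31 members was 8412, 7833, 19769.8 and 13748 CPM in the double knockouts and 63332, 14372, 30236 and 24411 CPM in their controls, so that WT-7069 lay below DKO-7112.

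Further genes of the pathway were read from 6 lists, also chosen with earlier results of these data known. They hold no member and 76 genes in all. In the double knockout 71 were tested, 30 fell and 7 rose, with a median log2 fold change of -0.34. These are 42.3% and 9.86% of the tested list genes, against 16.6% and 19.2% of all genes. In the ARID1B knockout 72 were tested and none was called (edgeR), and in the contrast 22 of 73 (30.1%) were lower and 3 (4.11%) higher in the double knockout, against 11.5% and 11% of all genes. Among insulin and glucose input genes 9 of 15 fell and none rose in the double knockout. Pklr, the liver pyruvate kinase, fell 3.62-fold (adjusted p = 0.00309), and Slc25a1, the citrate carrier, fell 1.47-fold (adjusted p = 0.0422). Of 14 genes of SREBP and LXR control 3 (21.4%) fell and 2 (14.3%) rose, near the shares of all genes. Scap, the escort of SREBP, fell 1.80-fold (adjusted p = 0.00305) and Nr1h3, the gene of LXR alpha, fell 1.28-fold (adjusted p = 0.0413). Insig1 (adjusted p = 0.536) and Pparg (adjusted p = 0.678) were not called.

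Of 10 tested acyl-CoA synthetases, which activate fatty acids, 6 fell and 1 rose. Acsl1 fell 3.61-fold (adjusted p = 2.90e-04) and Acsl4 fell 1.89-fold (adjusted p = 0.0107). Of 15 other glycerolipid synthesis genes 5 fell and 2 rose. Gpat4, the acyltransferase of the endoplasmic reticulum, fell 1.53-fold (adjusted p = 0.00301), and Gpd1, which makes glycerol phosphate, was not called (adjusted p = 0.0569). Of 8 other lipase genes 4 fell and none rose. Mgll, monoglyceride lipase, fell 3.61-fold (adjusted p = 2.52e-05), Lipe, hormone-sensitive lipase, fell 1.79-fold (adjusted p = 0.0287), and G0s2, an inhibitor of adipose triglyceride lipase, was at 16.3 ± 8.90 CPM against 37.2 ± 18 CPM and was not called (adjusted p = 0.135).

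Of 9 other tested elongation cycle and desaturase genes 3 fell and 2 rose. Hsd17b12, the reductase that serves all elongases, fell 1.62-fold (adjusted p = 0.00224). Elovl7, another elongase, was at 13.2 ± 0.924 CPM against 0.466 ± 0.413 CPM. It rose 28.4-fold (adjusted p = 1.49e-05). Elovl7 passed the filter on low counts through the double knockouts, so this call is descriptive. In the ARID1B experiment Elovl7 was at 0.187 ± 0.0966 CPM against 0.460 ± 0.237 CPM and failed the filter.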

How the data were processed

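Liver mRNA-seq libraries, made per the labels from RNA taken up in TRIzol and cleaned on RNeasy columns (NuGEN Ovation libraries), were read from 2 gene tables, 1 for each experiment. The values are raw counts per gene as the authors deposited them, not normalized. Per the submitters' processing notes reads were handled with featureCounts 1.6.2, Trim Galore 0.4.1 and HISAT2 2.1.0. The notes name the builds GRCm38, mm10 and GRCh38 with no role, and no source used here gives the annotation or strand setting. Reads of overlapping genes may be shared, and 17 of the 31 members overlap a gene on the opposite strand. The ARID1B file has 27 lines with dates in place of gene names.

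Groups follow the labels' genotypes. Each knockout was compared with its own controls, and the effects were contrasted in 1 fit over 24394 genes found in both tables. The edgeR 4.0.16 quasi-likelihood test (R 4.3.3, filterByExpr, TMM scaling, robust fit) was used, with Benjamini-Hochberg adjustment over all tested genes. It was also run on simulated counts that gave all genes the same fixed dispersion. That run does not check the test for genes as variable as these members. Confidence intervals are at 95%. CPM per kb divides by the exon union of GENCODE M21 (GRCm38). Alternatives were DESeq2 1.42.0, limma 3.58.1 with voom, other scalings and filters, the tag range as a term, F5 and F5-2 summed, all 16 libraries in 1 fit, and leaving out each library. The members, the pathway lists and the marker lists were chosen with earlier results of these data known. The rule for named genes took all members, Arid1a, Arid1b and 16 genes fixed in the pathway lists, of which 1 is not reported here. Of the hepatocyte list 9 of 10 symbols and of the lymphocyte list 7 of 8 were found.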

Additional observations from a re-analysis of the deposited data

Results flagged for a closer look

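In 4 cases a library stood apart from the other 3 of its group by Dixon's test at the 95% level. Fads2 was at 618 CPM in DKO-7112, Lpin2 at 705 CPM in DKO-7137 and at 668 CPM in F7, and Mogat1 at 0.542 CPM in F5-2, whose 3 fellow controls had 0 counts. Chance gives this in about 1 in 20 groups. It was seen in 2 of 58 member groups of the double knockout experiment, against 6.33% of all gene groups, and in 2 of 62 of the ARID1B experiment, against 5.46%.

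The double knockout effect differed from the ARID1B effect in 14 members by edgeR's test of the difference (adjusted p under 0.05). The differences of log2 fold changes were Acly (-2.22), Me1 (-2.25), Acaca (-1.83), Acacb (-1.69), Fasn (-3.02), Thrsp (-6.44), Scd2 (4.55), Fads1 (-1.33), Fads2 (-1.31), Elovl6 (-3.65), Srebf1 (-2.26), Mlxipl (-1.56), Agpat2 (-1.36) and Dgat2 (-1.82).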

How the results depend on the processing

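Counts of called members kept within 1.5 times of those reported except in these cases. Scaled to hepatocyte markers, 6 members were higher and 8 lower in the double knockout, and 6 higher and 7 lower in the contrast. Over all genes this scaling gave 7408 higher and 549 lower in the double knockout, 15 and 110 in the ARID1B knockout and 7250 and 346 in the contrast. Total counts gave 3266 and 1269, 22 and 86, and 2627 and 744. The reported counts were 2467 and 2137, 26 and 56, and 1552 and 1610. In the ARID1B knockout DESeq2 gave 153 and 203 genes, all 16 libraries in one fit 13 and 37, and leaving out a library 4 to 33 higher and 13 to 73 lower, with 4 and 13 without F1. With total counts 3 members were higher in the contrast, and with all 16 libraries in one fit 1 was higher in the double knockout. In the ARID1B knockout 0 members were lower with a filter of 1 CPM in 4 libraries and 0 with DESeq2, which gave Elovl3 no adjusted p. Leaving out each library in turn gave 1 to 2 higher members in the double knockout, 0 to 1 higher and 0 to 1 lower in the ARID1B knockout, and 1 to 2 higher in the contrast. Me1, Acaca, Thrsp, Elovl6, Srebf1, Mlxipl, Lpin1 and Dgat2 were called lower, and Scd2 higher, in the double knockout under all 17 alternatives. The causes of these changes were not tested, other than that a filter removes genes and leaving out a library lowers n.

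Of the values that changed sign, that of Dgat1 in the double knockout was the only one called in the comparison as reported. With total counts as the scale, the log2 fold changes that changed sign were Lpin2 0.088 in the double knockout; Me1 -0.070, Insig2 -0.0055 and Lpin3 -0.0049 in the ARID1B knockout; Elovl1 0.24, Elovl2 0.024 and Agpat3 0.10 in the contrast. Scaled to hepatocyte markers, the log2 fold changes that changed sign were Agpat3 0.35, Lpin2 0.47 and Dgat1 0.13 in the double knockout; Me1 -0.092, Insig2 -0.094 and Lpin3 -0.061 in the ARID1B knockout; Elovl1 0.68, Elovl2 0.50, Agpat3 0.55, Lpin2 0.32 and Dgat1 0.38 in the contrast. With a filter of 1 CPM in 4 libraries, the log2 fold changes that changed sign were Me1 -0.0022 in the ARID1B knockout. With F5 and F5-2 summed, the log2 fold changes that changed sign were Me1 -0.057 and Insig2 -0.031 in the ARID1B knockout. With all 16 libraries in one fit, the log2 fold changes that changed sign were Elovl5 0.00055 in the ARID1B knockout. With limma voom, the log2 fold changes that changed sign were Mlxipl 0.0031 and Insig2 -0.042 in the ARID1B knockout. With a library left out, values that crossed 0 ran for Elovl2 from -0.055 to 0.32, Insig2 from -0.12 to 1.05 and Lpin2 from -0.27 to 0.024 in the double knockout; Me1 from -0.14 to 0.33, Elovl5 from -0.091 to 0.10, Mlxipl from -0.11 to 0.11, Insig2 from -0.39 to 0.27, Agpat3 from -0.11 to 0.0015 and Lpin3 from -0.078 to 0.15 in the ARID1B knockout; Elovl1 from -0.17 to 0.11 and Insig2 from -0.20 to 0.95 in the contrast.

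The labels give no shared replicate numbers, so no fit used a replicate number as a block. The tag range, which the double knockouts and their controls share, served as the block in its place. It gave 15 lower and 2 higher members in the double knockout and 13 and 1 in the contrast, with the changed calls of Acly, Fasn and Elovl5 given above. At 8699417 to 11031443 counts per library, Elovl3 and Mogat1 were below edgeR's filter in the double knockout experiment.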
